A study of Mus musculus with 3 samples.

Results

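The interferon-stimulated genes examined here were 48 named genes of the antiviral response, taken as every row of the expression table that carried one of their names, out of 51826 rows in all. All 48 were found, and all 48 reached 1 FPKM (fragments scaled to transcript length and to the mapped total) in every library, so none was lost to the minimum of 1 FPKM. The rule used no measured value, although earlier results of these data were known when the list was drawn up.

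The libraries came from ST2, a mouse bone marrow stromal cell line that can become osteoblasts or adipocytes. Cells were transfected with lipofectamine 3000 in 3 ways. The control combined vector without insert with a control siRNA, NELL2 overexpression combined the construct with that siRNA, and Fn1 knockdown combined the vector with siRNA to Fn1, with siRNA at 30 nM. NELL2 is a secreted glycoprotein and Fn1 encodes fibronectin, and the comparisons asked which genes lie downstream of each. Every library therefore came from cells given both plasmid DNA and siRNA, in 1 cell line, and cells that were not transfected were not analysed here. There was 1 library in each group, so no value has a replicate error, no test was made, and every difference is a difference between libraries. In bulk RNA, fewer cells expressing a gene and less RNA per cell cannot be told apart.

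Nell2 stood at 0.640, 326 and 1.06 FPKM in the control, the NELL2 and the knockdown library, and Fn1 at 2802, 2489 and 137 FPKM, which is 4.88% of the control in the knockdown. Both genes followed the labels. Depth, estimated from low values, was about 23000000, 23700000 and 24200000 fragments. All 12 marrow stromal markers examined reached 1 FPKM, with Col1a1 at 1494, 1601 and 1352 FPKM. The defining leukocyte marker Ptprc (CD45) stood at 0.0452, 0.0633 and 0.0331 FPKM, and the lymphoid and plasmacytoid markers Cd3e and Siglech were listed at 0 in all 3. The 9 leukocyte markers found once in the table summed to 19.5, 22.0 and 12.6 FPKM, and 4 of them reached 1 FPKM. Lyz2 stood at 11.8, 13.9 and 7.22 FPKM and Cd68 at 4.08, 3.54 and 1.57 FPKM. Cd14 stood at 1.74, 1.99 and 2.39 FPKM and Csf1r at 1.06, 1.23 and 1.06 FPKM. The 5 endothelial markers summed to between 1.79 and 2.0 FPKM.

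Type I interferons are secreted when a cell senses foreign nucleic acid, and they act on the same and neighbouring cells through the receptor made of Ifnar1 and Ifnar2 and the kinases Jak1 and Tyk2. The kinases activate a complex that holds Stat2 and Irf9 and binds the interferon-stimulated response element in the promoters of many antiviral genes. Interferon gamma acts through a different element, the gamma-activated site, and many stromal cells keep part of this programme on without infection.

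RefSeq promoters were searched for these 2 elements. The window ran from 250 bases before to 50 bases after each start, both strands were read, and the letters were GAAANNGAA for the core of the response element and TTCNNNGAA for the gamma-activated site. A match of one can overlap a match of the other. Windows were listed for 37 of the 48 members. Not listed were Zbp1, Parp9, Dhx58, Usp18, Ifi27, Mx2, Mx1, Rtp4, Oas2, Parp14 and Iigp1. The response element core was present in 23 of the 37 members (62.2%), against 2638 of the 27025 genes with a promoter in the RefSeq table (9.76%). The gamma-activated site was present in 10 of 37 members (27.0%), against 9.55% of the genes in that table. Such a match describes the letters and does not show a bound site.

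The 4 promoters below are those of the members at 10 FPKM or more with the largest ratio of NELL2 overexpression to control whose window held the core, and they show where it lies. Ifit3b came next by a margin below the second decimal (0.50, as for Igtp) and is not printed. The 250 bases before the start are printed, read 5′ to 3′ on the strand of the gene, with the core or its reverse complement in capitals. On GRCm38.p6 they are chr12:26456453-26456702 (minus strand) for Rsad2, chr5:120907526-120907775 (minus) for Oas1a, chr3:142620413-142620662 (plus) for Gbp2 and chr11:58199306-58199555 (plus) for Igtp. The capitals begin 119 bases before the start in Rsad2, 58 in Gbp2 and 34 in Igtp, and in Oas1a a pair of overlapping cores begins 20 and 14 bases before it.
Rsad2: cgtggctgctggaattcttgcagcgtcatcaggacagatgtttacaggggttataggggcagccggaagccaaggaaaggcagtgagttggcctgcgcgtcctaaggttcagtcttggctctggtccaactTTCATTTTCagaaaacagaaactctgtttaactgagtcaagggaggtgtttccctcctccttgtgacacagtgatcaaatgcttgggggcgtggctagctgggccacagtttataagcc
Oas1a: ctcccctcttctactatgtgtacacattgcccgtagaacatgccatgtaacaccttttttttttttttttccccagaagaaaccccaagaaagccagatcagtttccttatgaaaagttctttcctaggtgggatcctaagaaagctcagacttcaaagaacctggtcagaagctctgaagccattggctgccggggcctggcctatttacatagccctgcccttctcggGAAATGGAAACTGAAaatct
Gbp2: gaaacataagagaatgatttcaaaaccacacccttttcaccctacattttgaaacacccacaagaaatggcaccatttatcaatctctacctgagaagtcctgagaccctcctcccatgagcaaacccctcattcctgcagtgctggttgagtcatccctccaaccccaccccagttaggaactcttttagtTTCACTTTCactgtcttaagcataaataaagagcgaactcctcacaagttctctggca
Igtp: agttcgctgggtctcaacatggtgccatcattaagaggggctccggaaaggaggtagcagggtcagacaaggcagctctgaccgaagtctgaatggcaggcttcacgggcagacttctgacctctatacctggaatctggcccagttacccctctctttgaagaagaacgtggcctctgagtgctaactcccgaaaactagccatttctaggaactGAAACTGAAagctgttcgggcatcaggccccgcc

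Most members were expressed above the ordinary gene in the transfected control. Their median level in the control was 43.2 FPKM, in a range from 2.34 (Oas3) to 818 FPKM (Ifitm3), where genes at 1 FPKM or more had a median of 9.99 FPKM. Of the 48 members, 43 lay above that median, and 12 were at 100 FPKM or more. The median member stood at 51.6 FPKM with NELL2 and 48.4 FPKM with Fn1 knockdown. Summed, the members held 5049.9, 6215 and 5498 FPKM, which is 1.27%, 1.56% and 1.39% of the FPKM of all genes in the control, NELL2 and knockdown libraries. In the text below, 3 values in a row are in that order of libraries.

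**Figure D1:**
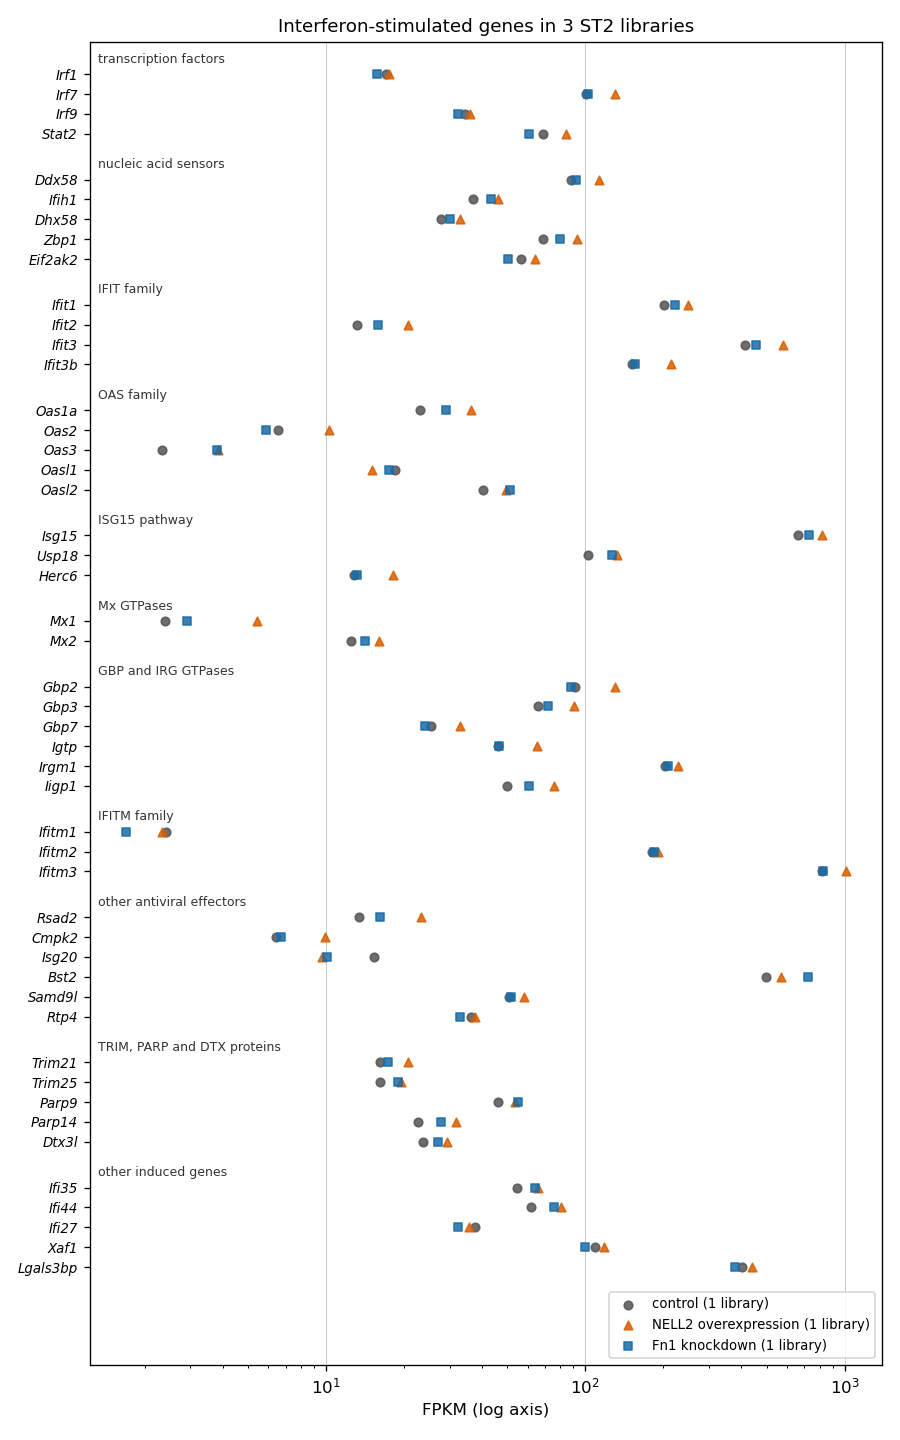
FPKM of each of the 48 interferon-stimulated genes on a log axis, 1 point per library (grey circles, control; orange triangles, NELL2 overexpression; blue squares, Fn1 knockdown), grouped by role. The triangle lies to the right of the circle for 44 of 48 genes, while the squares fall on both sides of the circles.

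With NELL2 overexpression, nearly the whole set was slightly higher than in the control. Ratios are log2 differences of FPKM + 1. In all, 44 of 48 members were higher, where 52.3% of all 12733 genes at 1 FPKM were higher, and the median member ratio was 0.31 (quartiles 0.18 and 0.48), or 1.24-fold, where the median of all genes was 0.01 with an SD of 0.25. Of all genes, 5.71% had a ratio above the median member, which is a comparison with single genes and not with medians of other lists. The differences were small, and 0 of 48 members differed by 2-fold or more, where 0.652% of all genes did. Past 1.5-fold (0.58 on this scale), 5 members rose, Mx1, Rsad2, Oas1a, Ifit2 and Iigp1, where 1.54% of all genes rose that far, and 1 member fell, Isg20, where 1.05% of all genes fell that far. With a pseudocount of 5 in place of 1, only Rsad2 stayed past 1.5-fold, and with one of 0.1, 8 members were higher and 1 lower by that much. The members that were lower than the control were Oasl1, Isg20, Ifitm1 and Ifi27.

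With Fn1 knockdown, the set was close to the control. Here 34 members were higher and 14 lower, where 49.5% of all genes were higher, and the median member ratio was 0.08 (quartiles -0.07 and 0.23), or 1.05-fold, with 36.5% of all genes above it. No member differed by 2-fold (0 of 48, against 1.23% of all genes), and 0 of 48 passed 1.5-fold in either direction, where 2.92% of all genes rose and 3.32% fell that far. The largest ratios were those of Bst2 (0.53) and Isg20 (-0.56). Set directly against the NELL2 overexpression library, the Fn1 knockdown library was higher for 5 members and lower for 43, where 52.0% of all genes were lower, and the median member ratio was -0.20. In that comparison 0 members differed by 2-fold (1.29% of all genes did), 0 rose past 1.5-fold (2.84% of all genes did) and 2, Oas2 and Mx1, were lower by that much (3.56% of all genes were). The comparisons share libraries and the control enters both ratios to it, so the ratios are given side by side and not as separate support for each other.

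**Figure D2:**
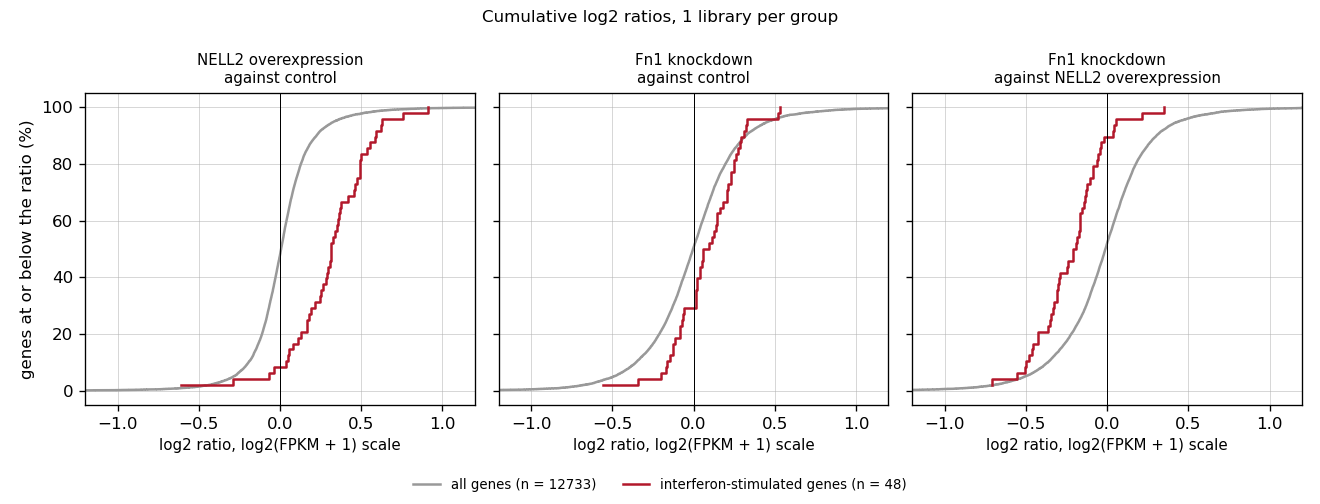
Percent of genes at or below each log2 ratio (x axis, log2(FPKM + 1) scale) for the 48 interferon-stimulated genes (red) and all 12733 genes at 1 FPKM or more (grey), 1 panel per comparison. The red curve is shifted to the right in the first panel (median 0.31 against 0.01), slightly in the second (0.08) and to the left in the third (-0.20).

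The transcription factors that drive the programme were uneven, with Irf7 and Stat2 near the median of the set with NELL2 and Irf1 and Irf9 nearly level. Irf7, the factor that amplifies interferon production, stood at 101, 129.7 and 102 FPKM. Stat2, the signal transducer of the type I response, stood at 68.4, 84.1 and 60.8 FPKM, with the knockdown below both other libraries. Irf9, which gives that complex its DNA contact, stood at 34.3, 35.8 and 32.3 FPKM, and Irf1, a factor of the interferon gamma response, at 17.0, 17.5 and 15.7 FPKM. All 4 were higher with NELL2, by ratios from 0.04 to 0.36, and only Irf7 was higher in the knockdown, by 0.02.

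The sensors of foreign nucleic acid were all higher with NELL2, at a median ratio of 0.31 over 5 genes. The RNA helicase Ddx58 (RIG-I) stood at 88.2, 113 and 91.9 FPKM and its relative Ifih1 (MDA5) at 36.8, 46.0 and 43.4 FPKM. Dhx58 (LGP2), which modulates those helicases, stood at 27.7, 33.0 and 30.1 FPKM. Zbp1, a sensor of Z-form nucleic acid that can start necroptosis, had the largest ratio of the group, 0.42, from 69.0 to 92.6 FPKM, with 79.8 FPKM in the knockdown. Eif2ak2, the kinase PKR that halts translation on double-stranded RNA, was the only sensor below the control in the knockdown, with 56.7, 63.8 and 50.5 FPKM.

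The IFIT genes, whose products bind viral RNA and block its translation, lie together on chromosome 19 of GRCm38, from Ifit2 (34550694 to 34576419) to Ifit1 (34640871 to 34650009), all on the plus strand. All 4 were higher with NELL2 and, by less, in the knockdown, at median ratios of 0.49 and 0.14. Ifit2, the least expressed, rose most, from 13.2 to 20.8 FPKM (1.58-fold), with 15.9 FPKM in the knockdown. Ifit1 stood at 200.4, 249 and 222 FPKM. Ifit3 and its neighbour Ifit3b stood at 413, 581 and 455 FPKM and at 152, 214 and 156 FPKM. These neighbours are near-copies, and 31.7% of the 100-base words of Ifit3 occur in another gene, mostly Ifit3b, so how reads were split between them is uncertain. Their summed FPKM, which still depends somewhat on the split because the transcripts differ in length, was 565, 795 and 611.

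The OAS genes make the oligoadenylates that switch on RNase L, and they did not move as one group. Oas1a rose with NELL2 from 23.0 to 36.1 FPKM (1.57-fold) and was at 29.1 FPKM in the knockdown, although it shares 40.9% of its 100-base words, mostly with Oas1g, which stood at 7.33, 11.2 and 8.32 FPKM. Oas2 stood at 6.52, 10.3 and 5.88 FPKM, just under 1.5-fold with NELL2 on the scale used (0.58), and was lower by 0.71 in the knockdown than with NELL2. Oas3, the largest of the enzymes, stood at 2.34, 3.84 and 3.79 FPKM and so was above the control by like amounts in both libraries, by 0.54 and 0.52, without passing 1.5-fold. Oasl2 showed the same near-equality at a higher level, with 40.5, 49.6 and 51.1 FPKM. Oasl1, which lacks the synthetase activity and restrains Irf7 translation, went the other way, with 18.5, 15.0 and 17.5 FPKM.

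Isg15 encodes a ubiquitin-like protein that is attached to other proteins in infected cells, and it was the second most abundant member. It stood at 659.7, 821 and 729 FPKM (chromosome 4, 156199424 to 156200818, minus strand). Usp18, which removes ISG15 and dampens the interferon receptor, stood at 102, 132 and 127 FPKM, nearly as high in the knockdown as with NELL2. Herc6, a ligase that attaches ISG15 in the mouse, stood at 12.8, 18.1 and 13.2 FPKM, with the knockdown at the level of the control. The Mx genes encode dynamin-like GTPases that trap viral particles. Mx1 had the largest ratio of all members with NELL2, 0.91, from 2.40 to 5.41 FPKM, which is 2.25-fold on FPKM itself, and it stood at 2.92 FPKM in the knockdown. It is also among the least expressed, and these values rest on an estimated 100, 230 and 130 fragments. Mx2 stood at 12.5, 16.0 and 14.1 FPKM.

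The guanylate-binding proteins and immunity-related GTPases attack the vacuoles of intracellular pathogens. All 6 were higher with NELL2, at a median ratio of 0.48, and the knockdown was near the control, at 0.03. Gbp2 stood at 91.4, 129.9 and 87.9 FPKM, Gbp3 at 65.8, 90.6 and 72.0 FPKM, and Gbp7 at 25.4, 32.8 and 24.2 FPKM. These neighbours on chromosome 3 thus shared the order of libraries except that Gbp3 was above the control in the knockdown. Igtp, whose exons overlap Irgm2 on the same strand, stood at 45.9, 65.2 and 46.3 FPKM. Iigp1 rose past 1.5-fold by a narrow margin that median-of-ratios scaling removed, from 49.8 to 75.6 FPKM (0.59), and stood at 60.9 FPKM in the knockdown. Irgm1, a regulatory member of the family and much the most abundant here, had the smallest ratio, 0.17, at 203, 228 and 209 FPKM.

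The IFITM proteins block virus entry at the membrane, and the 3 genes covered the whole range of expression. Ifitm3 was the most abundant member, at 818, 1012 and 827 FPKM, higher with NELL2 by 0.31. Ifitm2 was nearly level at 181, 191 and 184 FPKM, with 34.9% of its 100-base words shared, mostly with Gm45717 and Gm8865, which both stayed below 1 FPKM. Ifitm1 stood at 2.42, 2.34 and 1.69 FPKM, on an estimated 41, 41 and 30 fragments.

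Among the other antiviral effectors, Rsad2 and Cmpk2 are neighbours on chromosome 12, on opposite strands (26442746 to 26456452 and 26469204 to 26479837). Rsad2 encodes viperin, which makes a chain-terminating nucleotide, and Cmpk2 encodes a mitochondrial nucleotide kinase. Rsad2 rose with NELL2 from 13.4 to 23.3 FPKM (1.74-fold) and stood at 16.1 FPKM in the knockdown, and Cmpk2 stood at 6.42, 9.89 and 6.71 FPKM, a ratio of 0.55 with NELL2. Isg20, an RNA exonuclease, was the only member lower with NELL2 by more than 1.5-fold. It fell from 15.3 to 9.67 FPKM and stood at 10.1 FPKM in the knockdown (-0.56, short of 1.5-fold), so that both manipulated libraries lay below the control, as they also did for Oasl1, Ifitm1 and Ifi27. Bst2 (tetherin), which holds budding virus at the cell surface, was highest in the knockdown, at 499.6, 566 and 722 FPKM, and had the largest ratio there, 0.53. Samd9l, a restriction factor that limits translation, stood at 50.8, 58.0 and 51.6 FPKM, and Rtp4, a chaperone of membrane receptors, was nearly level at 36.4, 37.7 and 32.9 FPKM.

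**Figure D3:**
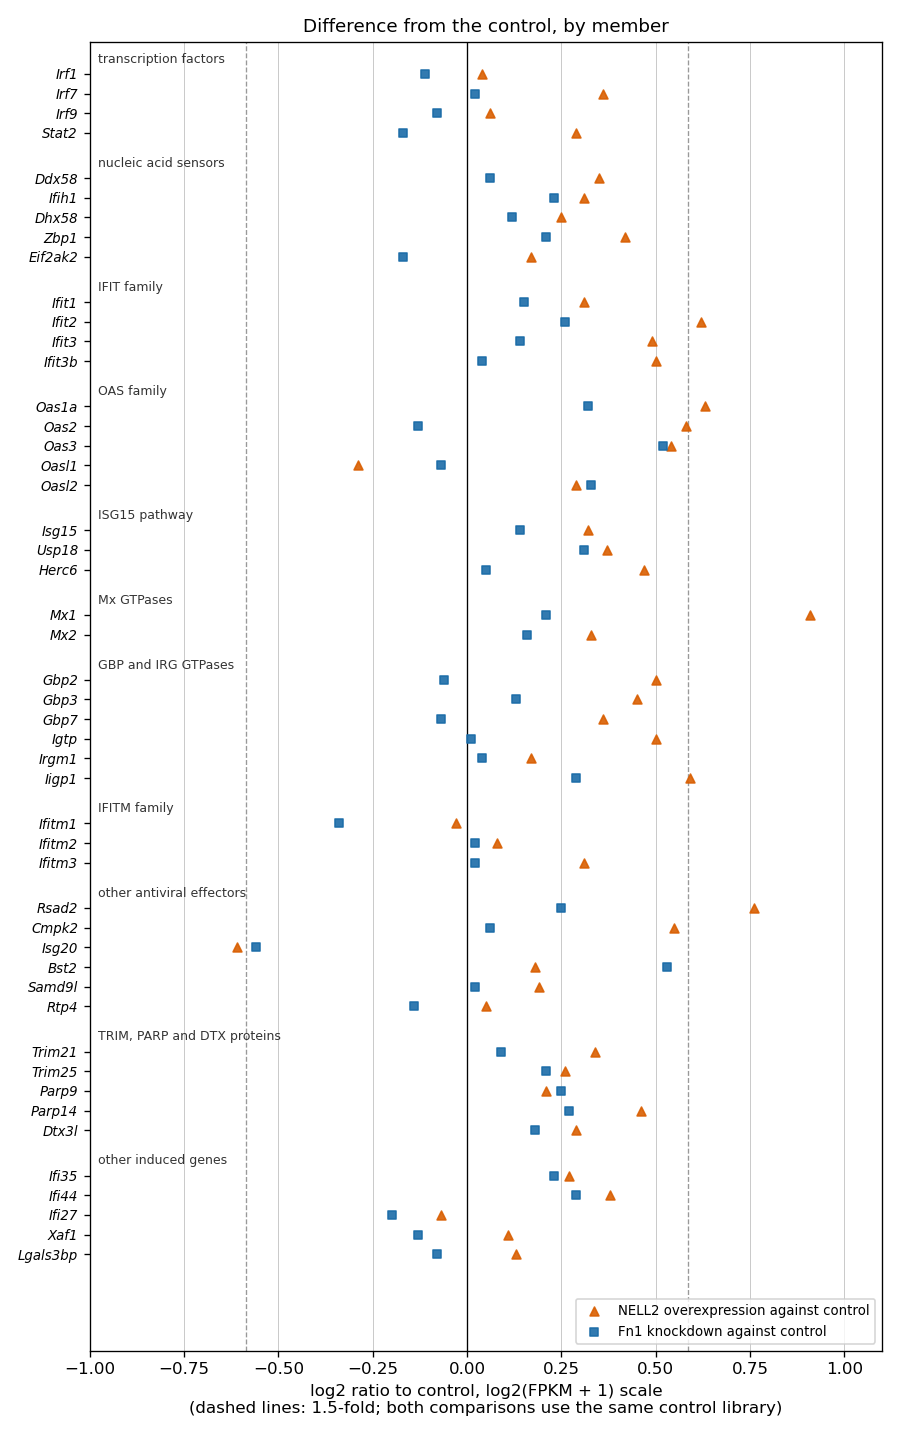
Log2 ratio to the control (log2(FPKM + 1) scale) for each member, with orange triangles for NELL2 overexpression and blue squares for Fn1 knockdown, and dashed lines at 1.5-fold. Triangles of Mx1, Rsad2, Oas1a, Ifit2 and Iigp1 lie past the upper line and that of Isg20 past the lower line, and no square lies past either.

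All 5 TRIM, PARP and DTX genes were above the control in both manipulated libraries, as were all IFIT, ISG15 pathway and Mx genes, at median ratios of 0.29 with NELL2 and 0.21 in the knockdown for the TRIM, PARP and DTX genes. Over the whole set, 34 of 48 members were above the control in both, where 32.1% of all genes were. The ubiquitin ligases Trim21, a cytosolic antibody receptor, and Trim25, which acts on RIG-I, stood at 16.2, 20.8 and 17.4 FPKM and at 16.2, 19.5 and 18.9 FPKM. The ADP-ribosyltransferase Parp14 stood at 22.7, 31.7 and 27.7 FPKM. Parp9 and its partner ligase Dtx3l stood at 45.9, 53.5 and 54.8 FPKM and at 23.7, 29.2 and 27.1 FPKM. These partners lie side by side on chromosome 16 with exons overlapping on opposite strands, and reads in the overlap cannot be assigned unless strand was used.

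The remaining induced genes had small ratios with NELL2, with a median of 0.13 over 5. Ifi44 stood at 61.9, 80.7 and 75.9 FPKM and Ifi35 at 54.6, 65.9 and 64.2 FPKM, both higher in both libraries. Lgals3bp, a secreted glycoprotein that binds galectin, stood at 400.3, 439 and 378 FPKM. Xaf1, a promoter of apoptosis, stood at 109, 118 and 99.7 FPKM, and Ifi27 at 37.4, 35.7 and 32.4 FPKM. For these last 3 genes the knockdown was the lowest of the libraries.

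The order of the libraries was the same for most members. In 31 of 48 the control was lowest, the Fn1 knockdown next and NELL2 overexpression highest, an order that 11.6% of the 12733 genes at 1 FPKM had. In 10, Irf1, Irf9, Stat2, Eif2ak2, Oas2, Gbp2, Gbp7, Rtp4, Xaf1 and Lgals3bp, the knockdown was below the control and NELL2 highest, as in 20.2% of all genes. The control was lowest and the knockdown highest in 3, Oasl2, Bst2 and Parp9, as in 20.5% of all genes. The control was highest in 4, Oasl1, Isg20, Ifitm1 and Ifi27, as in 30.3% of all genes. With 1 library per group, neighbours in these orders have no measured spread by which to separate them, and many differ by a few percent.

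Members with and without the response element core in their listed promoter were both mostly higher with NELL2. All 23 with the core were higher, at a median ratio of 0.34, and 11 of the 14 without it were higher, at 0.20. Of all genes, 52.3% were higher. Members with no listed window are in neither count, among them Mx1, with the largest ratio (0.91), and Ifi27, which was lower (-0.07). The 4 printed promoters were picked, among members at 10 FPKM or more with the core, for the largest ratios. These ratios, 0.76 (Rsad2), 0.63 (Oas1a), 0.50 (Gbp2) and 0.50 (Igtp), therefore add nothing to this comparison. The difference between members with and without the core was not tested.

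Upstream of these genes, the interferons themselves were at or near 0. Of 21 interferon genes listed, none reached 1 FPKM and 16 were at 0 in all 3 libraries. Ifnb1, the first interferon made by infected fibroblasts, stood at 0.0581, 0.0281 and 0.250 FPKM. Ifnz stood at 0.284, 0.428 and 0.199 FPKM. Ifna4 stood at 0.00362, 0 and 0.110 FPKM, Ifna5 was listed only in the knockdown, at 0.0481 FPKM, and Ifnab only in the control, at 0.0412 FPKM. These levels are too low to read an order from them.

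The receptors and kinases were present and changed little. The type I receptor chains Ifnar1 and Ifnar2 stood at 18.2, 18.8 and 21.7 FPKM and at 12.1, 13.4 and 14.7 FPKM. The interferon gamma receptor chains Ifngr1 and Ifngr2 stood at 18.6, 18.9 and 17.6 FPKM and at 24.8, 24.3 and 21.6 FPKM. Of the type III receptor, the shared chain Il10rb stood at 7.13, 8.20 and 6.12 FPKM and the specific chain Ifnlr1 at or below 0.218 FPKM. Jak1 stood at 79.6, 86.0 and 100.4 FPKM and Tyk2 at 6.0, 6.53 and 6.28 FPKM. Of 7 Janus kinases and STATs examined at 1 FPKM, these kinases included, 6 were higher with NELL2 and 5 in the knockdown. Their median ratios were 0.11 and 0.06. None passed 1.5-fold, where 1.54% of all genes rose and 1.05% fell that far with NELL2, and 2.92% and 3.32% in the knockdown.

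The induction pathway runs from the sensors' adaptors to the kinases and factors that start interferon transcription. Of its 15 genes, 12 were higher and 3 lower with NELL2 (median 0.13), and 6 higher and 9 lower in the knockdown (median -0.12). None passed 1.5-fold, where 1.54% of all genes rose and 1.05% fell that far with NELL2, and 2.92% and 3.32% in the knockdown. On FPKM itself, the knockdown stood at 1.53-fold of the control for Traf3, 1.54-fold for Traf6 and 0.612-fold for Irf5. Over all genes, 52.3% were higher with NELL2 and 49.5% in the knockdown, which is the background for the counts of each list here. A list of feedback regulators and ISG15-conjugating enzymes had 8 of 9 genes higher with NELL2, at a median of 0.37, and 6 of 9 in the knockdown, at 0.10. Of these, Rnf125, at 0.761, 1.54 and 1.07 FPKM, reached the minimum only in the libraries where it was higher, so its direction was set by that minimum. The list held 1 gene past 2-fold (0.652% of all genes with NELL2), Ube2l6, the enzyme that carries ISG15 to its targets. Ube2l6 stood at 50.4, 119 and 47.9 FPKM, a rise of 2.36-fold with NELL2 that no member of the 48 matched, while its partners Isg15, Usp18 and Herc6 had ratios from 0.32 to 0.47.

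Interferon-induced chemokines had the largest medians of the lists examined. All 5 at 1 FPKM were higher with NELL2, at a median ratio of 0.70, and 4 of them rose past 1.5-fold, where 1.54% of all genes did. The list was drawn up with earlier results of these data known. In the knockdown 4 of 5 were lower than the control, at a median of -0.40. That count and median include Cxcl9, which was below 1 FPKM there, and the others ran from -0.61 (Ccl5) to 0.38 (Ccl7). Cxcl10, a T cell attractant, rose with NELL2 from 46.7 to 102 FPKM (2.19-fold) and stood at 36.4 FPKM in the knockdown. Ccl5, another T cell attractant, rose from 119 to 196 FPKM and fell in the knockdown to 77.6 FPKM. The monocyte attractants Ccl2 and Ccl7 rose with NELL2, at 222, 361 and 168 FPKM and at 84.2, 133 and 110.0 FPKM, and only Ccl7 stayed above the control in the knockdown. Cxcl9 stood at 2.11, 3.38 and 0.977 FPKM and fell in the knockdown, where 3.32% of all genes fell past 1.5-fold. It reached the minimum only in the libraries where it was higher, so its direction in the knockdown was set by that minimum. The 48 members ran from -0.56 to 0.53 in the knockdown, a range that holds Cxcl10, Ccl2 and Ccl7, and the difference between members and chemokines was not tested. Of the leukocyte markers, Cd68 at 4.08, 3.54 and 1.57 FPKM and Lyz2 at 11.8, 13.9 and 7.22 FPKM also fell past 1.5-fold in the knockdown, while Cd14 stood at 1.74, 1.99 and 2.39 FPKM and Csf1r at 1.06, 1.23 and 1.06 FPKM. The part of these markers in the chemokine values was not tested.

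**Figure D4:**
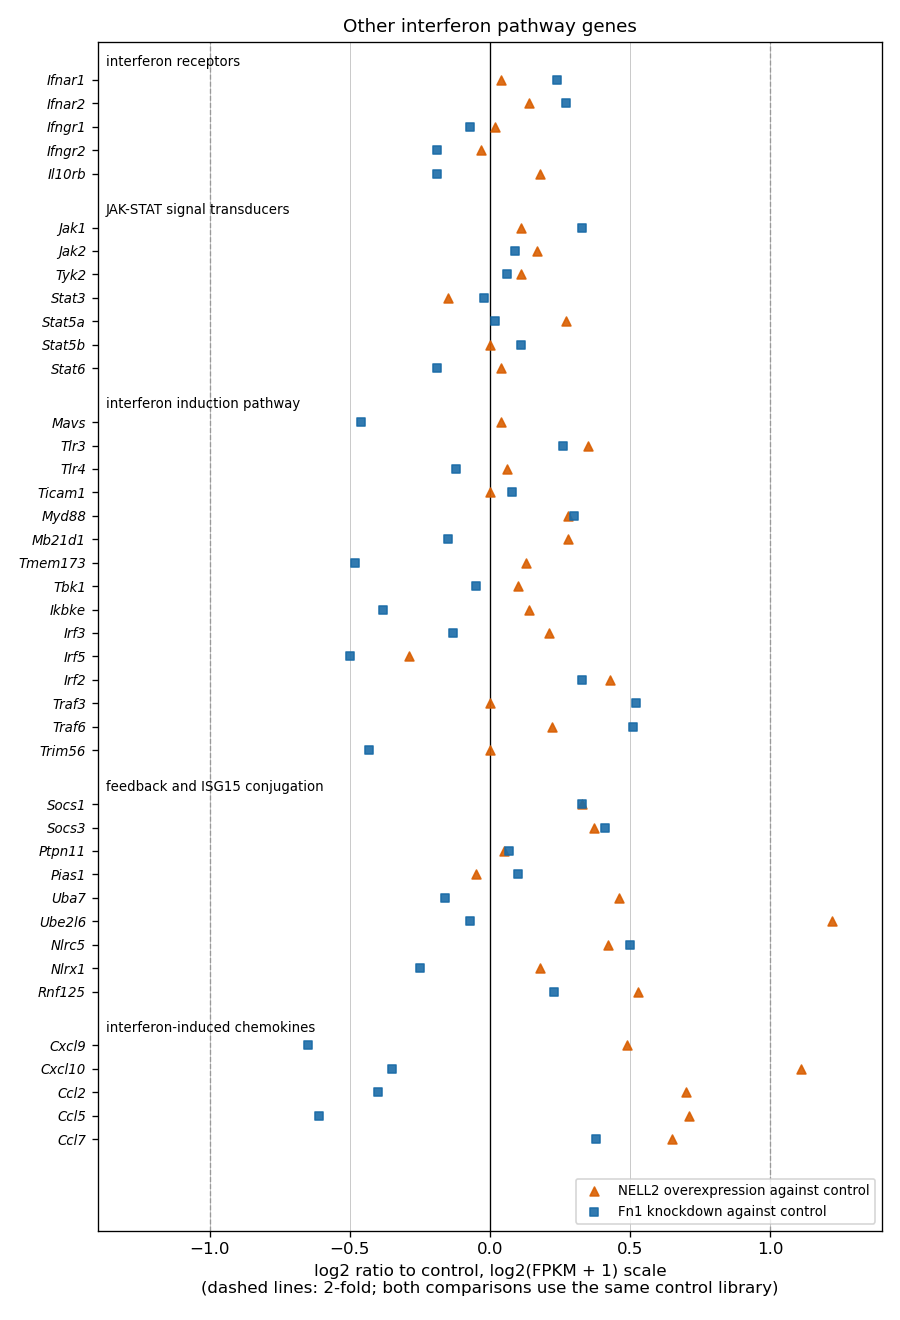
Log2 ratio to the control (log2(FPKM + 1) scale) of other interferon pathway genes, with orange triangles for NELL2 overexpression, blue squares for Fn1 knockdown and dashed lines at 2-fold. Only the triangles of Ube2l6 (1.22) and Cxcl10 (1.11) lie past a dashed line.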

How the data were processed

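Messenger RNA of ST2 cells was profiled in 3 libraries, 1 per group, as 150 base paired ends after oligo(dT) enrichment. The authors deposited a table of FPKM per gene. HISAT2, DESeq and GRCm38 are named in the submitters' processing notes, without versions. The program that computed FPKM, the annotation and the use of strand are not given in the sources used here.

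FPKM was used as deposited. Ratios were differences of log2(FPKM + 1), which understate the change of low genes. A gene was called at 2-fold, or 1.5-fold, on this scale with at least 1 FPKM in either library. Counts of higher genes and medians were taken over genes at 1 FPKM in any library, and all genes passing the same filter served as background. No p-value was computed. All 48 members were named with their values by rule, and from the other lists the receptors, Jak1, Tyk2, ligands above 0 and genes past 1.5-fold in either comparison with the control. Some listed items are not reported here. Markers named with their values include some chosen after those were seen. The members and lists were chosen with earlier results of these data known. The calling code was tested on simulated data.

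Depth was estimated from the commonest product of FPKM and length at low values, over 13865 genes with a single transcript of at least 600 bases. Between 26.8% and 27.7% of these products lay within 0.02 of a whole fragment, so reads were not recovered, and numbers of fragments per gene are approximate. Positions, overlaps and shared 100-base words came from GENCODE M21 (GRCm38), where 48 of 48 members matched by name. Promoters came from RefSeq (GRCm38.p6). By GENCODE, 7 members overlapped exons of another gene on the same strand and 10 on the opposite strand, and 7 members shared more than 10% of their 100-base words.

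Alternatives were pseudocounts of 0.1 and 5, a filter of 5 FPKM or none, and median-of-ratios scaling. A filter of 10 FPKM and leaving out the 7 members that share sequence were added after the data had been seen. Python 3.11.15, pandas 2.3.3, numpy 2.4.6 and matplotlib 3.10.9 were used.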

Additional observations from a re-analysis of the deposited data

How the results depend on the processing

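Of 84 recomputed counts and medians, 78 stayed within the limits set for an unchanged value and 0 reversed. The 6 others were counts of few genes or a median near 0. With a pseudocount of 0.1, Mx1 passed 2-fold with NELL2 (1 member, a ratio of 1.14) and 2 members passed 1.5-fold in the Fn1 knockdown, 1 higher and 1 lower. With a pseudocount of 5, 1 member passed 1.5-fold with NELL2 and 0 between knockdown and NELL2, where a filter of 10 FPKM left 1. Without the members that share sequence, the median in the knockdown was 0.12. With the filter of 10 FPKM, 41 of 44 members were higher with NELL2 (median 0.31), where 52.8% of 6524 genes were. Scaling moved the median of all genes by -0.0086, -0.0006 and 0.0079 in the comparisons as ordered in the text. No paired analysis was possible because no group had more than 1 library, which also kept any library from being left out. Depth limits Mx1, Oas3, Ifitm1 and Isg20 most. Mx1, Oas3 and Ifitm1 rest on at most 250 estimated fragments, and Isg20 on 300, 190 and 210 in the control, NELL2 and knockdown libraries.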

Other observations

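Interferon-induced families outside the 48 genes were chosen after their values were seen and are described by their values. Of all genes at 1 FPKM, 52.3% were higher with NELL2 and 49.5% in the Fn1 knockdown. The 5 further guanylate-binding protein genes at 1 FPKM were all higher with NELL2, at a median log2 ratio of 0.56, and 3 of 5 were higher in the Fn1 knockdown, at 0.04. Gbp6 had the largest ratio of them, 0.89, at 8.24, 16.1 and 10.4 FPKM in the control, with NELL2 and with the knockdown. Of the Ifi200 family, which includes sensors of DNA, 7 genes reached 1 FPKM and were above the control in both libraries, but Ifi206 (0.613 FPKM in the control) and Ifi209 (0.877 FPKM) reached it only where they were higher, so their direction was set by that minimum. Ifi204 stood at 40.5, 53.3 and 56.1 FPKM. Of the Schlafen genes, 4 of 5 were higher with NELL2 and 3 of 5 in the knockdown, at medians of 0.28 and 0.02, and Slfn9 fell in the knockdown, at 28.6, 30.5 and 18.5 FPKM. The 3 further Oas1 genes were higher in both libraries, at medians of 0.31 and 0.16. Irgm2, which overlaps Igtp, stood at 42.5, 56.6 and 45.2 FPKM.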
